A study of Rattus norvegicus with 10 samples.

Results

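Expression in the caudate putamen and the nucleus accumbens of cocaine-treated rats was set against that of saline-treated rats. These regions make up the striatum, and 4 of the 10 arrays of the study cover them: 1 cocaine array and 1 saline array for each region. The other 6 arrays are the cocaine and saline arrays of the amygdala, prefrontal cortex and ventral tegmental area. All samples are total RNA of rat brain regions; the sources used here do not state strain, age, sex, dose, route, duration, time of dissection or pooling of animals. Each value is a dChip expression index, which summarises the probes of a probe set into 1 intensity per array. A probe set is a group of short probes for 1 transcript, and a gene may have several.

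The dorsal and ventral striatum receive dopamine from midbrain axons. Cocaine blocks the dopamine transporter, so released dopamine lingers at projection neurons that carry Drd1 or Drd2 receptors. Drd1 signalling through cyclic AMP and MAP kinases switches on immediate early genes within minutes. Homer1 is one such gene: its long protein links glutamate receptors to the postsynaptic scaffold, and its short, activity-induced form loosens that link. Ptgds makes prostaglandin D and is secreted into the cerebrospinal fluid by meninges and choroid plexus, and Psap is the precursor of the saposins, lysosomal activators of sphingolipid breakdown.

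A probe set was kept when its index was above 0 on all 4 striatal arrays and reached at least 2000 on 1 of them. Of 8740 probe sets other than controls, 8689 had a value on all 4 arrays and 51 were listed at 0 on at least 1. The index reached 2000 for 5134, and 3555 stayed below it. The cocaine index lay above the saline index in both regions for 850 of them (16.6%) and below it in both for 1767 (34.4%), which gave 2617 members, while 2517 went opposite ways. The threshold passes through a continuum: Dennd3 entered with a top index of 2000.3, and Cryba1 at 1999.8 and Srsf11 at 1997.1 did not. Most shared signs belong to small differences, since 2072 members (79.2%) had a log2 ratio under 0.1 in size in at least 1 region.

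The tissue labels were checked against genes of striatal projection neurons. In 12 of 14 measured markers all 4 striatal arrays lay above all 6 other arrays. The share of all tested probe sets that do so was not counted, so this is only a description of these markers. Drd1 had an index of 10904 and 8166 with cocaine in the caudate putamen and nucleus accumbens, against 11001 and 8237 with saline, and at most 3228 elsewhere. The exceptions were Pdyn and Strn. The striatal pairs had the least spread of the 5 regions, and they were taken for this comparison with that known from earlier results. The SD of the log2 ratio of cocaine over saline across probe sets was 0.13 for the caudate putamen and 0.149 for the nucleus accumbens, against 0.209 to 0.332 in the other 3. The median index of the 4 arrays lay between 2208.4 and 2303.2, and each held 8 to 19 zeros.

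The ratios of both regions were nearly unrelated. Across 5134 probe sets, the log2 ratio in the caudate putamen and that in the nucleus accumbens, which share no array, correlated with r = 0.0409, and probe sets are not independent replicates. A difference of at least 1.2-fold in both regions was reached upward by 8 probe sets (0.156%) and downward by 26 (0.506%). The split between higher and lower shared signs changed with the scaling of the arrays. The caudate median of the log2 ratio was -0.0277 and the accumbens median -0.0295, and the share of members on the higher side was 32.5% as deposited, 43.7% with arrays scaled to 1 median and 51.3% with quantile normalization. The split also moved with level: over 4 groups of about equal size by rising top index, the share higher in both regions went through 20.9%, 20%, 14.1% and 11.3%, and the share lower in both through 29.9%, 32.1%, 35.4% and 40.3%.

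**Figure D1:**
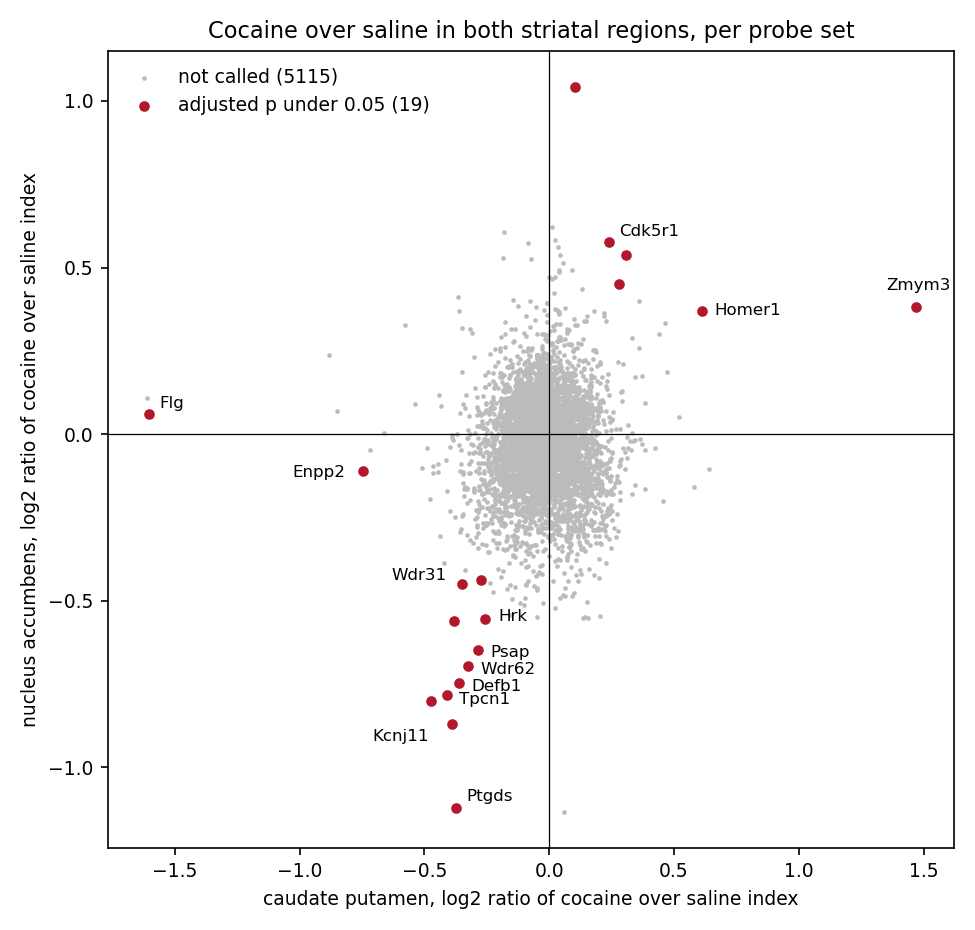
Log2 ratio of the cocaine over the saline index for the caudate putamen (horizontal) and the nucleus accumbens (vertical) for each of 5134 probe sets, with the 19 past the limma threshold in red. The cloud is round (r = 0.0409), most labelled points lie in the quadrants of shared sign, and Flg lies far left with opposite signs.

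Across both regions, limma called 19 of 5134 probe sets (0.37%), 6 higher (0.117%) and 13 lower (0.253%), at an adjusted p below 0.05. Among the named genes, Homer1, Zmym3 and Cdk5r1 rose on 1 probe set each, and Ptgds, Kcnj11, Tpcn1, Defb1, Psap, Wdr62, Hrk, Wdr31, Ggcx and Enpp2 fell. Of the calls, 18 are members, 6 higher and 12 lower, and 5 calls have no single gene name. The fit had region as a block and 1 residual degree of freedom, so each call leans on the spread pooled over all probe sets, which limma weighted as 26.49 further degrees of freedom. Hrk, Ggcx, the D28560_g_at probe set of Enpp2 and Flg were named after their values were seen, because they were called. The labels do not say that arrays come from separate animals, and no region has a repeat array of the same treatment. The 1 residual degree of freedom is thus the gap between the caudate and accumbens ratios. In effect these regions serve as replicates of the treatment. With region as a block, p-values here measure only how ratios differ between regions, pooled over probe sets. Such differences may be technical, and spread between animals or repeat arrays was not measured. The pairs were also taken with their small spread known, so the pooled spread is that of the pairs with the least. An unadjusted p under 0.05 was reached by 388 probe sets (7.56%), 76 higher. The calls are not stable: 0 passed under median scaling, under quantile normalization, with zeros raised to the floor, with no filter on the index, with all 10 arrays in the fit, or without the region block. Leaving out 1 of the 4 arrays needs the fit over the other regions' arrays, which gave 0 with every array present, so its 0 calls do not bear on any single array.

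Homer1 rose on 1 of its 4 tested probe sets, and the other 3 lay lower in both regions. The probe set that rose, AB003726_at, had an index of 3303 with cocaine against 2160 with saline in the caudate putamen, and 2484 with cocaine against 1921 with saline in the nucleus accumbens. Both cocaine values lay above both saline values. Such separation, here and below, partly follows from naming probe sets by their ratios, and its share over all probe sets was not counted. The log2 change was 0.49 ± 0.09 (SE of limma's fit, 2 regions, limma adjusted p = 0.00697), with ratios of 0.61 and 0.37. The ratio was 0.43 in the amygdala, 0.10 in the ventral tegmental area and -0.37 in the prefrontal cortex, where the index was highest, at 4476 with cocaine and 5794 with saline.

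All 5 other Homer1 probe sets, 2 of them below the threshold for testing, lay on the lower side in both regions. AB017140_g_at, the most abundant, stood at 5934 with cocaine and 6108 with saline in the caudate putamen, and at 3789 with cocaine and 4115 with saline in the nucleus accumbens. AB017140_at had log2 ratios of -0.09 and -0.15, and AF093268_s_at of -0.0023 and -0.03. These 3 did not pass (limma adjusted p = 0.849 to 0.997). AB007688_s_at and AF093267_s_at stayed below an index of 2000 and were not tested, with ratios of -0.24 and -0.23 in the caudate putamen. The sign of AF093268_s_at turned under both scalings. The annotation used here gives all 6 only as Homer1, so which transcript form each one reads is not known from it.

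Ptgds, on the lower side, has 1 probe set. It had an index of 6968 with cocaine against 9016 with saline in the caudate putamen, and 12944 with cocaine against 28155 with saline in the nucleus accumbens. Each cocaine value lay below its own saline partner, while the ranges over the 2 regions overlap, because the accumbens levels are higher. The log2 change was -0.75 ± 0.11 (SE of limma's fit, 2 regions, limma adjusted p = 0.00118). The ratios of the 2 regions, -0.37 and -1.12, lie farther apart than this SE conveys. Elsewhere the ratio was 0.39 in the amygdala, 0.38 in the ventral tegmental area and -0.33 in the prefrontal cortex. In bulk tissue, fewer cells of a type and less RNA per cell cannot be told apart.

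Most other genes of choroid plexus and meninges did not follow Ptgds. Of the 9 tested besides it, 2 were higher in both regions, 2 lower, and 5 had opposite signs. The summed index of these 9 was 45934 with cocaine against 72783 with saline in the caudate putamen, and 36961 with cocaine against 36692 with saline in the nucleus accumbens, the region where the Ptgds ratio was larger in size. Ttr, the thyroid hormone carrier that choroid plexus makes in bulk, had 11221 with cocaine against 34312 with saline in the caudate putamen. Its accumbens level was low, at 1832 with cocaine and 1700 with saline, and another Ttr probe set was listed at 0 on both caudate arrays. Enpp2, which makes lysophosphatidic acid and is found in choroid plexus and oligodendrocytes, stood at 4473 with cocaine and 7498 with saline in the caudate putamen on probe set D28560_g_at. Its accumbens values there were 2882 with cocaine and 3112 with saline. The log2 change was -0.43 ± 0.10 (SE of limma's fit, limma adjusted p = 0.04985), with ratios of -0.75 and -0.11, so it lies mostly in the caudate putamen. The more abundant Enpp2 probe set, D28560_at, had ratios of -0.72 and -0.05 and did not pass (limma adjusted p = 0.119). Without Ttr as well, the caudate sum of the other 8 was 34713 with cocaine and 38471 with saline. Kl and Col1a1, which were higher in both regions, had ratios of 0.02 and 0.12 and of 0.05 and 0.04. The part of such tissue in the caudate value of Ptgds was not tested.

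Psap was called on 1 of its 3 probe sets. S81353_s_at had an index of 10084 with cocaine against 12294 with saline in the caudate putamen, and 12938 with cocaine against 20289 with saline in the nucleus accumbens, a log2 change of -0.47 ± 0.10 (SE, n = 2 regions; limma adjusted p = 0.0219). M19936_at was lower in the nucleus accumbens, at 8906 with cocaine and 12792 with saline, and level in the caudate putamen, at 7065 with cocaine and 6960 with saline. The most abundant, rc_AA875233_s_at, gave 25848 with cocaine and 24782 with saline in the caudate putamen, and 27466 with cocaine and 29508 with saline in the nucleus accumbens. The probe sets thus share their direction in the nucleus accumbens and not in the caudate putamen. Of 14 tested lysosome genes, 0 were higher and 5 lower in both regions (35.7%, near the 33.1% of all 3187 genes tested), with a median log2 change of -0.04, and 3 were higher and 2 lower under quantile normalization.

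**Figure D2:**
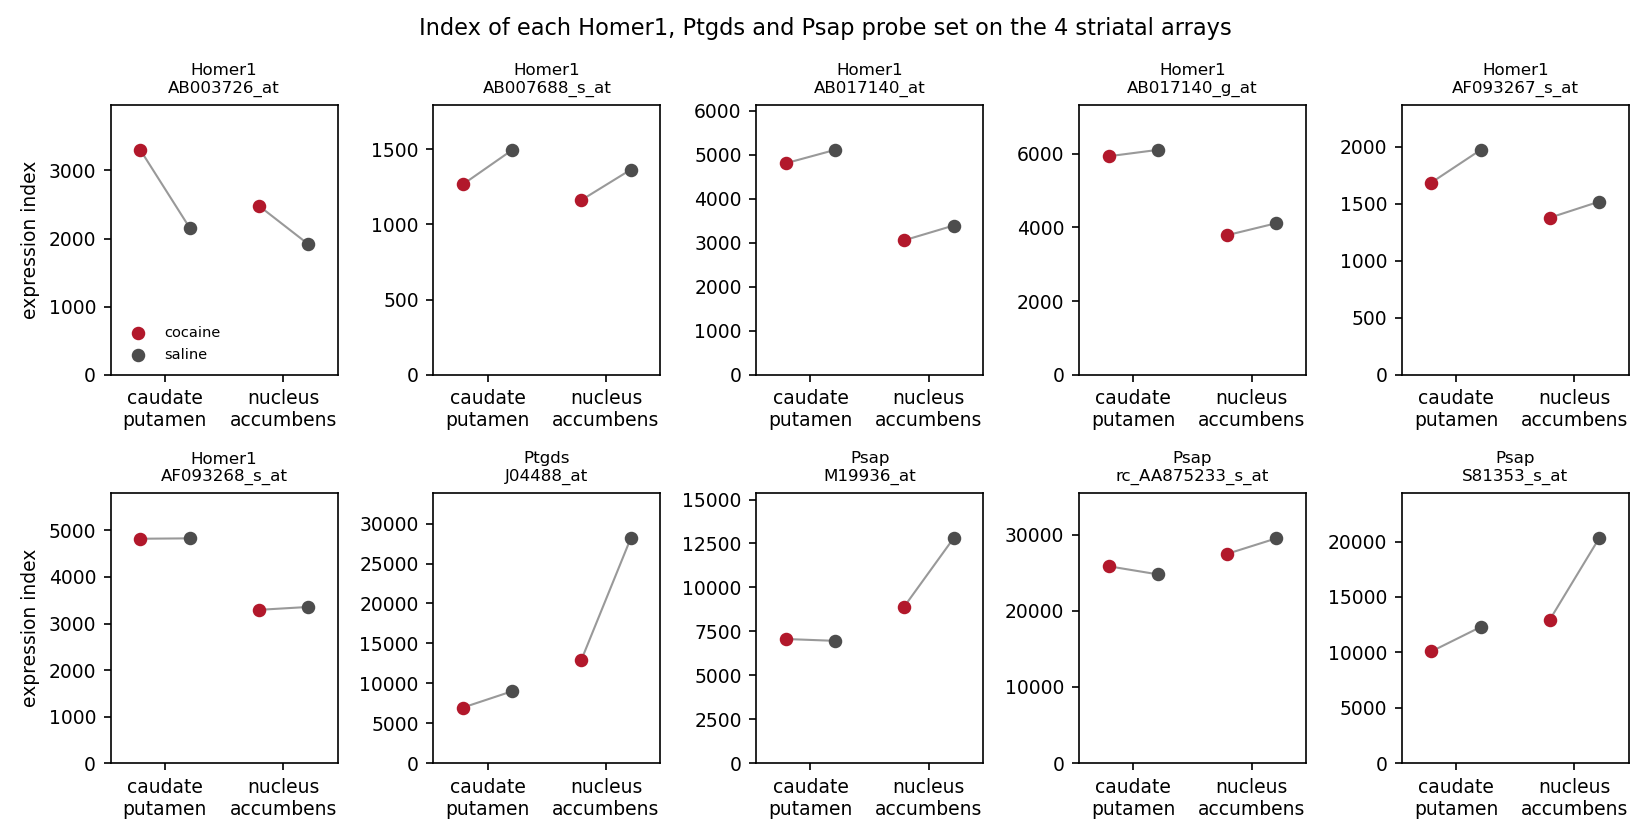
Expression index (vertical, from 0) of all 6 Homer1, the single Ptgds and all 3 Psap probe sets on the 4 striatal arrays, with cocaine in red left of saline in grey and a line joining the arrays of 1 region. AB003726_at slopes down toward saline in both regions while the other 5 Homer1 probe sets slope up, and Ptgds spans 12944 to 28155 in the nucleus accumbens.

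The other named genes on the higher side had smaller or less secure ratios. Zmym3, a chromatin-associated zinc finger protein, was called on rc_AI639419_at, at 2845 with cocaine against 868 with saline in the caudate putamen and 2354 with cocaine against 1805 with saline in the nucleus accumbens. The value of 868 lay below the floor of 1028.4, to which it was raised before logs were taken. The other Zmym3 probe set, at 8520 with cocaine and 8355 with saline in the caudate putamen, had opposite signs. Cdk5r1 encodes p35, the activator of the neuronal kinase Cdk5. Its probe set rc_AA850669_at had 4651 with cocaine against 3942 with saline in the caudate putamen and 4815 with cocaine against 3230 with saline in the nucleus accumbens (log2 change 0.41 ± 0.08, SE; limma adjusted p = 0.0229). The more abundant Cdk5r1 probe set went opposite ways, with ratios of 0.10 and -0.09.

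Of the rest, Sgk1, a kinase induced by glucocorticoids and by neuronal activity, had 2114 with cocaine against 1557 with saline in the caudate putamen and 2115 with cocaine against 1717 with saline in the nucleus accumbens. Dusp1, the phosphatase that switches off MAP kinases, had on S81478_s_at 2534 with cocaine against 1974 with saline and 2324 with cocaine against 1942 with saline in the same regions. On these probe sets all cocaine values exceeded all saline values, which partly follows from how they were named. The amygdala ratio was 0.68 for Sgk1 and 1.03 for Dusp1. The most abundant Dusp1 probe set, S74351_s_at, went opposite ways, at -0.10 and 0.04, with -0.38 in the amygdala, and U02553cds_s_at had 0.08 and 0.12. Sgk1 and the S81478_s_at probe set of Dusp1 did not pass (limma adjusted p = 0.159 and 0.219). Npy5r, a neuropeptide Y receptor, had ratios of 0.36 and 0.40, and Gls2, a glutaminase, of 0.46 and 0.33. Rheb, the GTPase that activates mTOR, had 0.19 and 0.25 on 1 of its probe sets. Rpl21, a ribosomal protein of the large subunit, had 4 tested probe sets, all higher in both regions, by 0.03 to 0.35 on the log2 scale. Pon1, Tnfsf13, Aurkb, Apoa4 and Lin7a lay between 0.18 and 0.33 on the probe sets named, and none passed. Other tested probe sets of Pon1 and Tnfsf13 had opposite signs. For Lin7a, AF090134_g_at and AF090135_at stayed below the threshold for testing, with ratios of -0.03 and -0.35, and of -0.12 and -0.19.

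On the lower side, Kcnj11 encodes the pore of the ATP-sensitive potassium channel. Its probe set D86039_g_at had 5927 with cocaine against 7764 with saline in the caudate putamen and 5328 with cocaine against 9746 with saline in the nucleus accumbens, a log2 change of -0.63 ± 0.09 (SE, n = 2 regions; limma adjusted p = 0.00118). Both cocaine values lay below both saline values. The companion D86039_at, from the same source sequence, showed 4948 with cocaine and 5036 with saline in the caudate putamen and 4893 with cocaine and 4638 with saline in the nucleus accumbens. Tpcn1, a cation channel of endosomes and lysosomes, had 1607 with cocaine against 2137 with saline and 1621 with cocaine against 2792 with saline on its only probe set (log2 change -0.60 ± 0.11, SE; limma adjusted p = 0.00453). Defb1, an antimicrobial defensin, and Wdr62, a spindle pole protein, fell by 0.55 and 0.51 on the log2 scale on 1 probe set each, and another tested probe set of each gene had opposite signs.

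Several of these genes share a profile outside the striatum. Kcnj11, Tpcn1, Defb1, Wdr62, Vwf and RT1-DMb had ratios from -0.88 to -1.72 in the amygdala, from 0.91 to 1.59 in the prefrontal cortex and from 0.67 to 1.14 in the ventral tegmental area. A ratio of at most -0.5 in the amygdala with at least 0.5 in both prefrontal cortex and ventral tegmental area was found in 8 of 24 probe sets that were lower by at least 1.2-fold in both striatal regions and had a value in all regions (33.3%). The share over all tested probe sets was 0.915% (44 of 4809). Among the 13 lower calls it was 7 of the 12 with a value in every region, among them Hrk, an inducer of cell death, and Ggcx, the vitamin K-dependent carboxylase. Across all probe sets the ratios of the amygdala ran against those of the prefrontal cortex (r = -0.613) and ventral tegmental area (r = -0.584). The part of that opposition in the striatal values of these genes was not tested.

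The remaining lower genes did not reach this profile, and Man2c1 came near it, where its amygdala ratio was -0.47, its prefrontal ratio 0.73 and its tegmental ratio 1.003. Dnm1l, the GTPase of mitochondrial fission, had ratios of -0.42 and -0.39 on AF020211_s_at, and 2 of its other 3 tested probe sets were lower in both regions. Prkacb, a catalytic subunit of the cyclic AMP-dependent kinase, had -0.34 and -0.41, and its more abundant probe set had -0.19 and -0.26. Hsp90b1, an endoplasmic reticulum chaperone, had ratios of -0.29 and -0.30 on AA685903_at, and its other 2 tested probe sets were also lower in both regions as deposited. Mobp, a myelin protein, had -0.35 and -0.28 on 1 probe set. Ldhb, a lactate dehydrogenase subunit, had -0.44 and -0.31 on U07181_g_at, while its more abundant probe set had 0.03 and -0.17. Man2c1, a mannosidase, had -0.36 and -0.29. None of these passed. Wdr31 fell on its only probe set, at 2008 with cocaine against 2558 with saline and 2280 with cocaine against 3116 with saline (limma adjusted p = 0.0344). Vwf, the clotting factor of endothelium, and RT1-DMb, a class II antigen-loading protein, did not pass.

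Flg, the gene of the skin protein filaggrin, was called without being a member. It had 2003 with cocaine against 6093 with saline in the caudate putamen but 6109 with cocaine against 5862 with saline in the nucleus accumbens, so its call rests on 1 region.

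**Figure D3:**
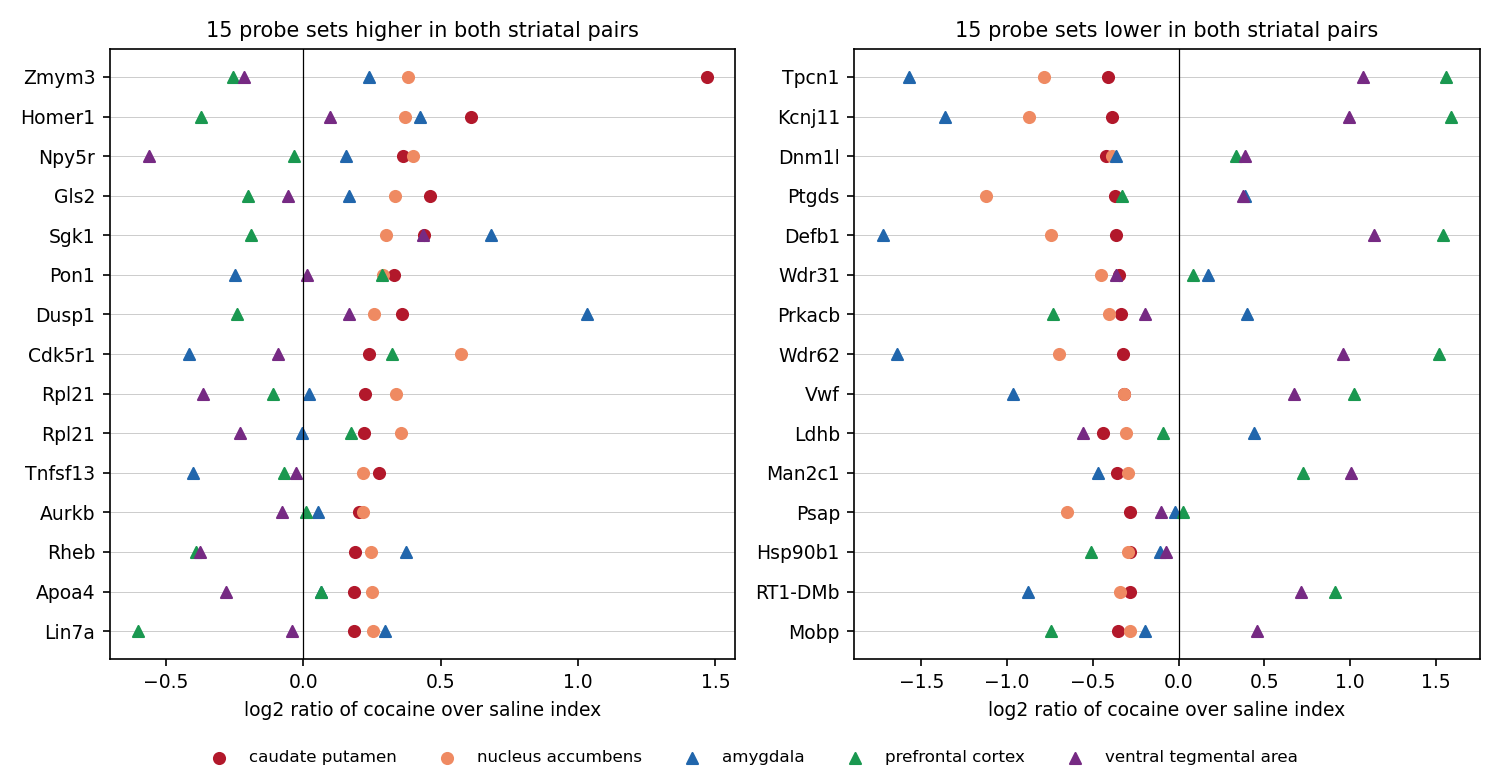
Log2 ratio of the cocaine over the saline index in 5 regions for the 15 probe sets with the largest shared ratio on each side, circles for striatal and triangles for other regions. On the lower side Tpcn1, Kcnj11, Defb1, Wdr62, Vwf and RT1-DMb carry amygdala triangles below -0.8 and prefrontal and tegmental triangles above 0.6.

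Agreement between probe sets of a gene was limited. Of the 14 higher genes named, 8 had another tested probe set, and for 2 of them, Dusp1 and Rpl21, at least 1 other was higher in both regions. Of the 15 lower genes, 10 had another, and Dnm1l, Prkacb, Hsp90b1 and Mobp had at least 1 other lower in both. Over all members, another probe set of the gene from a different source sequence was also higher in both regions in 54 of 265 cases for higher members (20.4%, against 16.6% of all tested). It was also lower in both in 438 of 817 cases for lower members (53.6%, against 34.4%).

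Immediate early genes showed no common direction. Of 22 tested, each by its most abundant probe set, 5 were higher and 7 lower in both regions, and over all 42 probe sets of the list 13 were higher and 12 lower (31% and 28.6%, against 16.6% and 34.4% of all tested). Fos, on its most abundant probe set, had 8658 with cocaine and 8149 with saline in the caudate putamen and 8480 with cocaine and 9752 with saline in the nucleus accumbens. Egr1 had 5833 with cocaine and 5718 with saline, and 7186 with cocaine and 7176 with saline, in the same regions, and its 4 probe sets did not share a direction. Arc had ratios of 0.05 and -0.04, Nr4a1 of 0.08 and 0.05, and Junb of -0.11 and 0.0030. Jun and Ptgs2, the inducible cyclooxygenase, lay lower, at -0.13 and -0.24 and at -0.15 and -0.15. In this list 0 of the 22 passed on the most abundant probe set, and Egr2 stayed below 2000.

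The promoters of Homer1 and Dusp1, immediate early genes with a probe set among the 15 with the largest shared ratio, are shown for an element that cyclic AMP signalling acts through. Sgk1 and Rheb, of the same list, are not shown. Sequences are RefSeq's, build GRCr8, the 250 bases before the annotated start, with the cyclic AMP response element TGACGTCA in capitals. Dusp1 (chr10:17184603-17184852, plus strand) holds it from -124 to -117. Homer1 (chr2:26278762-26279011, plus strand) does not hold these letters in this window, and sequence outside it was not searched.
Homer1: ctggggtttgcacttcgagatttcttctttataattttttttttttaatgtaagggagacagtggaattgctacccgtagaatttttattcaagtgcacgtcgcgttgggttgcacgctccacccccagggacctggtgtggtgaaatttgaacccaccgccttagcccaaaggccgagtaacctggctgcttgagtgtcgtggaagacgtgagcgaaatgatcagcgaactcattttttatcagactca
Dusp1: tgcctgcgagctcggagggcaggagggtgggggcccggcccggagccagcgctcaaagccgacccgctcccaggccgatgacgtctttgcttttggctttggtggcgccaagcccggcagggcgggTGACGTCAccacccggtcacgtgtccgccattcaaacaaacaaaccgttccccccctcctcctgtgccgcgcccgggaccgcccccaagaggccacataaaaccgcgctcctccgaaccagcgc
The element, which reads the same on both strands, occurs in 531 of 33469 rat promoters of this length (1.59%) and in 2 of the 15 tested immediate early genes with a promoter sequence, Crem and Dusp1. On their most abundant probe sets 0 of these 2 were higher and 0 lower in both regions.

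Chaperones of the endoplasmic reticulum and the cytosol lay mostly on the lower side. Of 16 tested genes of heat shock and the unfolded protein response, 1 was higher and 11 lower in both regions (68.8%, against 33.1% of 3187 genes tested), with a median log2 change of -0.10 against -0.02 over all genes. The count of lower genes was 11 (68.8%) under median scaling and 7 (43.8%) under quantile normalization, where 28.2% and 24.7% of all tested probe sets were lower. Canx, the membrane-bound lectin chaperone of the endoplasmic reticulum, had 8446 with cocaine against 10075 with saline in the caudate putamen and 9365 with cocaine against 11276 with saline in the nucleus accumbens. Hspa5, the main endoplasmic reticulum chaperone and sensor of unfolded proteins, had 4468 with cocaine against 5707 with saline and 5579 with cocaine against 5937 with saline. In both genes the cocaine values of both regions lay below both saline values. Cryab, a small heat shock protein also abundant in oligodendrocytes, had ratios of -0.44 and -0.11, and Pdia4, a disulfide isomerase, of -0.09 and -0.36. The mitochondrial Hspe1 was the 1 higher gene, at 0.02 and 0.08. None of the 16 passed (limma adjusted p = 0.212 for Cryab and 0.277 for Canx).

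**Figure D4:**
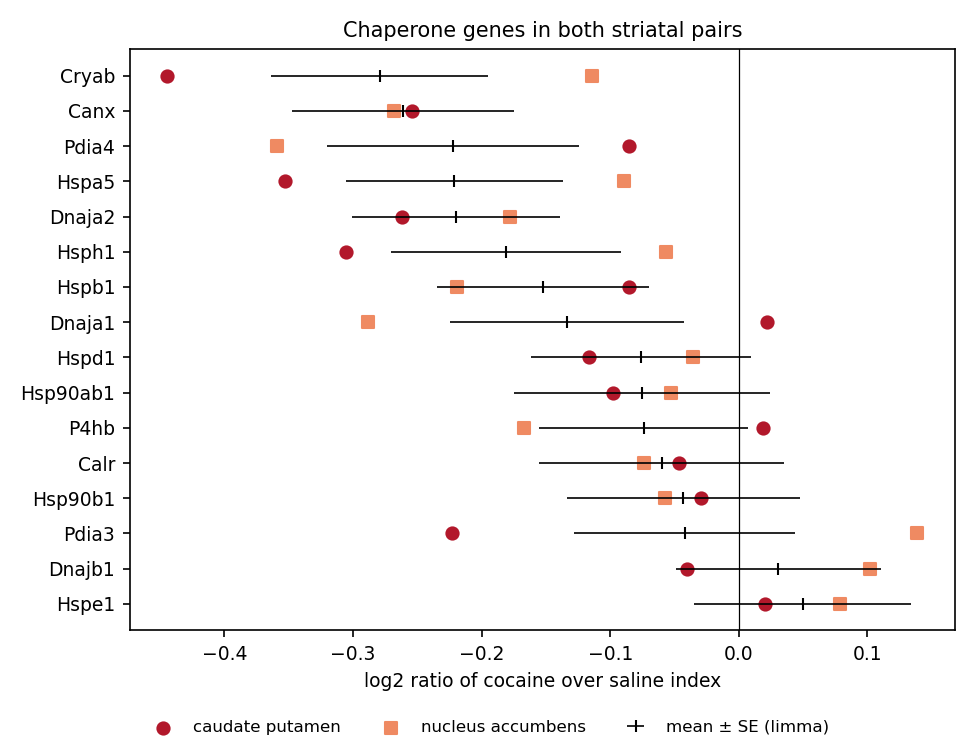
Log2 ratio of the cocaine over the saline index for 16 chaperone genes, with the caudate putamen as circles, the nucleus accumbens as squares and the mean ± SE of limma's fit as bars. Hspe1 and Dnajb1 are the genes with a mean above 0, and Cryab has the lowest mean, -0.28.

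Promoters of 3 of these genes are shown for the endoplasmic reticulum stress response element, CCAAT and CCACG with 9 bases of any kind between them, searched on both strands and shown in capitals. It lies in Hsp90b1 (chr7:23012294-23012543, minus strand) from -176 to -158 and, reversed, from -72 to -54. It lies in Hspa5 (chr3:38452766-38453015, plus strand) from -43 to -25, and in Canx (chr10:35157858-35158107, minus strand) from -230 to -212.
Hsp90b1: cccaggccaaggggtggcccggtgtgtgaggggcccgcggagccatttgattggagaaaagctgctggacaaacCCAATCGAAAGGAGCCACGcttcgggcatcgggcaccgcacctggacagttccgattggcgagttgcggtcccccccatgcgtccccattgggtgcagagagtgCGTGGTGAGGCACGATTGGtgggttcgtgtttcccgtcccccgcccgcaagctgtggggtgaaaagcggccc
Hspa5: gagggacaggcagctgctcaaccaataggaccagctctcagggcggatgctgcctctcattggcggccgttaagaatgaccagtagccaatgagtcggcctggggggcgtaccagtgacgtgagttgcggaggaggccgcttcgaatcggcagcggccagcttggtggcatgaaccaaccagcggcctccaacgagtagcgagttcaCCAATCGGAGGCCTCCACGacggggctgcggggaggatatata
Canx: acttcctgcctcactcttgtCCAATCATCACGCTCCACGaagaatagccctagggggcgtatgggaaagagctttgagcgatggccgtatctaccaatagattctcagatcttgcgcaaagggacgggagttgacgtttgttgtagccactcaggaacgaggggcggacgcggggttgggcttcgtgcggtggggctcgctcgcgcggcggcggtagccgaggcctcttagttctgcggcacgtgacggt
Of 33469 promoters, 22 hold this element (0.0657%). Of 13 tested chaperone genes with a promoter sequence 4 do, Calr, Canx, Hsp90b1 and Hspa5. All 4 were lower in both regions as deposited, as were 68.8% of the 16 tested chaperone genes and 33.1% of all genes. Ratios were small for Calr, at -0.05 and -0.07, and for Hsp90b1 on S69315_at, at -0.03 and -0.06. Whether the element bears on these values was not tested. Under quantile normalization the mean of the most abundant Hsp90b1 probe set, S69315_at, turned to 0.01.

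Of 25 dopamine signalling genes, 1 was higher and 15 lower in both regions as deposited (60%, against 33.1% of all genes). Under quantile normalization 5 were higher and 8 lower (32%, against 24.7% of all tested probe sets). Drd2, the receptor of the indirect pathway, had 4977 with cocaine against 5405 with saline in the caudate putamen and 3210 with cocaine against 3419 with saline in the nucleus accumbens. Gnal, the G protein subunit that couples Drd1 to adenylyl cyclase, had 4737 with cocaine against 5359 with saline and 5016 with cocaine against 5826 with saline. Drd1 itself had ratios of -0.01 in both regions. Of 12 genes of the MAP kinase cascade and its phosphatases, 0 were higher and 8 lower (66.7%, against 33.1% of all genes). The lower share was 58.3% under median scaling and 41.7% under quantile normalization, against 28.2% and 24.7% of all tested probe sets. The exchange factors that load Ras with GTP had the largest differences, Rasgrf1 with ratios of -0.35 and -0.25 and Rasgrp1 with -0.17 and -0.47. Map2k1, the kinase that activates ERK, had -0.24 and -0.15. None of these passed (limma adjusted p = 0.119 for Rasgrf1 and for Rasgrp1).

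Synaptic lists differed in direction. Of 15 GABA genes, 0 were higher and 9 lower in both regions (60%, against 33.1% of all genes), and 1 and 6 under quantile normalization (40% lower, against 24.7% of all tested probe sets). Slc32a1, the vesicular GABA transporter, had ratios of -0.03 and -0.30. Gad2, which makes GABA, had -0.17 and -0.16. Of 21 genes of synaptic vesicles and release, 3 were higher and 11 lower (52.4%). Under quantile normalization 6 were higher and 5 lower (28.6% and 23.8%), near the 26% and 24.7% of all tested probe sets. Rab3a, a vesicle GTPase, had -0.08 and -0.34, and the calcium sensor Syt1 had -0.12 and -0.34, with its caudate cocaine value of 966 below the floor. Of 11 postsynaptic scaffold genes 0 were higher and 5 lower (45.5%), and 3 and 4 under quantile normalization. Of 18 neuropeptide precursors 0 were higher and 4 lower (22.2%, below the 33.1% of all genes), and 3 and 4 under quantile normalization. The 18 glutamate receptors gave 4 higher and 3 lower (22.2% and 16.7%, against 16.6% and 33.1% of all genes). Their median log2 change was 0.05, but the regions differed in sign. The median ratio was -0.07 for caudate arrays and 0.11 for accumbens arrays. Quantile normalization gave 6 higher and 1 lower (33.3% and 5.56%, against 26% and 24.7% of all tested probe sets).

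Glial and metabolic lists completed the comparison. Of 10 oligodendrocyte and myelin genes, 1 was higher and 6 lower in both regions as deposited (60%), 5 lower under median scaling (50%) and 6 under quantile normalization (60%), with a median log2 change of -0.10. Mog and Mag, membrane glycoproteins of myelin, had ratios of -0.21 and -0.23, and of -0.13 and -0.21. Of 52 oxidative phosphorylation genes, 3 were higher and 27 lower (51.9%, against 33.1% of all genes). Under quantile normalization 7 were higher and 13 lower (25%, against 24.7% of all tested probe sets). Their median ratio was -0.10 for caudate arrays and -0.02 for accumbens arrays. These genes are abundant: 50 of them reached an index of 4000, and 52% of those were lower, against 37.9% of all probe sets that reached it. The 39 ribosomal proteins split 7 higher and 6 lower as deposited, and 16 and 4 under quantile normalization, with medians of -0.03 and 0.06 in these regions. The other lists are small, and over all genes 16.6% were higher and 33.1% lower. Of 8 microglial and immune genes 4 were higher (50%), by log2 ratios of only 0.009 to 0.07, and 1 lower (12.5%). Of 8 astrocyte genes 1 was higher (12.5%) and 2 lower (25%). Blood and endothelial genes gave 3 higher (33.3%) and 1 lower (11.1%) of 9. Circadian and glucocorticoid-responsive genes gave 3 higher (27.3%) and 4 lower (36.4%) of 11. Of 5 markers of neighbouring basal forebrain neurons 1 was higher and 1 lower (20% each), and of 3 cortical excitatory neuron markers 1 was higher (33.3%). The striatal projection neuron markers of the label check gave 1 higher and 10 lower of 14 (71.4%), and 5 and 7 under quantile normalization (35.7% and 50%). Lists share genes, so their counts are not separate. Drd1, Drd2, Gnal, Gng7, Adcy5 and Pde1b, lower here, also count among the lower dopamine signalling genes, and Penk and Pdyn among the lower neuropeptide precursors. Slc32a1 counts in both the GABA and the vesicle list. With Ptgds the exception, on the most abundant probe set of each gene no member of these lists passed the test.

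**Figure D5:**
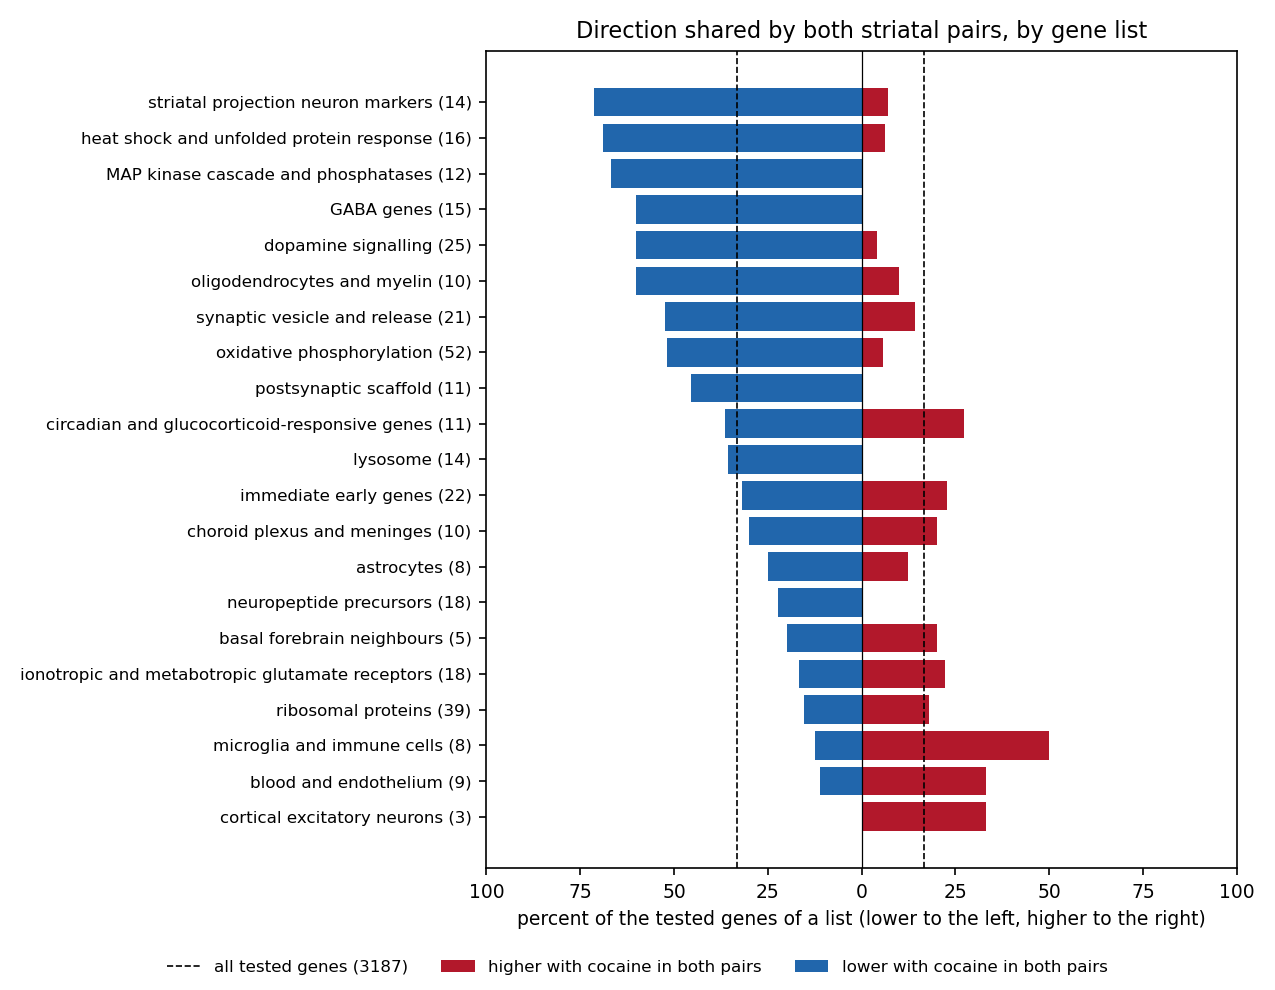
Percent of the tested genes of each list that lay higher (right, red) or lower (left, blue) with cocaine in both striatal regions, with the number of genes in brackets. Dashed lines mark the 16.6% higher and 33.1% lower over all 3187 tested genes; striatal markers, chaperones and MAP kinase genes extend farthest left and microglial genes farthest right.

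Whether the striatal ratios differ from those of the other 3 regions was tested over all 10 arrays. No probe set passed (0 of 5130, 0%), with 16 at an unadjusted p under 0.05 (0.312%). The difference in log2 change was -1.04 ± 0.79 (SE) for Kcnj11 D86039_g_at, 1.003 ± 0.34 for Zmym3 rc_AI639419_at, -0.89 ± 0.30 for Ptgds and 0.44 ± 0.25 for Homer1 AB003726_at (limma adjusted p = 0.9997 for each). Without the cocaine or the saline array of the amygdala the count was 189 or 185, so the 0 depends on that pair. None of the ratios above is therefore shown to be particular to the striatum.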

How the data were processed

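The deposited values are dChip expression index intensities of 10 arrays, per the labels, on a linear scale. Version, model and scaling of dChip: not given in the sources used here. Of 8799 probe sets, 59 controls were left out; 7006 of the other 8740 have 1 gene symbol, 308 several and 1426 none. Exact zeros were treated as missing. Values under the floor of 1028.4, the 20th percentile of values above 0, were raised to it before log2. Probe sets reaching 2000 on at least 1 striatal array were fitted on the 4 striatal arrays with limma 3.58.1 (R 4.3.3), with region and treatment as terms, an intensity trend in eBayes and Benjamini-Hochberg adjustment over all tested. The difference from the other 3 regions was fitted on all 10 arrays. Tables and plots used Python 3.11.15, pandas 2.3.3 and matplotlib 3.10.9. With 1 array per region and treatment, the number of arrays limits the precision. On simulated data of the striatal comparison, 48 of 50 changes of 1.5-fold and 50 of 50 of 2-fold were recovered, with 5 false calls among 5134 probe sets. The simulated noise was independent between probe sets and had the SD that the same fit estimated. It held no shift between arrays, so these counts cannot show how reliable the calls on the real arrays are. Named were the 15 higher and 15 lower members with the largest smaller ratio, all probe sets of Homer1, Ptgds and Psap, the other probe sets of those genes, up to 4 genes per list and 7 immediate early genes where measured. Each list gene is represented by its most abundant probe set. Members and lists were chosen with earlier results of these data known. Alternatives were other scalings, filters, floors, fits and each array left out.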

Additional observations from a re-analysis of the deposited data

Results flagged for a closer look

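The Tnfsf13 probe set rc_AA891690_at was higher with cocaine in both striatal regions, with log2 ratios of 0.28 and 0.22, and lower in the amygdala, prefrontal cortex and ventral tegmental area, with -0.40, -0.07 and -0.03. The striatal minus other difference was 0.41 ± 0.16 (SE) and did not pass (limma adjusted p = 0.9997). The other 2 Tnfsf13 probe sets had opposite signs in the striatal regions.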

How the results depend on the processing

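The count of 19 striatal calls became 0 with zeros raised to the floor, under median scaling, under quantile normalization, with no filter on the index, with all 10 arrays in the fit, with no region block, and without 1 of the 4 arrays (0 to 0), and unadjusted p under 0.05 then numbered 340, 252, 265, 444, 15, 64 and 6 or 12. Leaving out an array also moves the fit to the other regions' arrays, which gave 0 with every array present, so those counts do not test the weight of 1 array. The count was 16 with no floor, 14 with no intensity trend and 19 at an index of at least 4000. Region is the pairing block of the fit, since the labels give no replicate numbers. Higher shared signs, 850 as reported, numbered 1336 under quantile normalization, 317 at an index of at least 4000 and 1318 with no filter. Lower shared signs, 1767 as reported, numbered 949 at an index of at least 4000. Members at 1.2-fold or more numbered 2 higher and 12 lower at an index of at least 4000, and 15 lower under quantile normalization. Calls of the striatal minus other difference ranged from 0 to 189 with 1 array left out: 189 without the cocaine and 185 without the saline array of the amygdala. Leaving out 1 array removes its region's pair from the effect, so shared signs cannot be formed then. Named means that turned sign were Homer1 AF093268_s_at (0.004787 under median scaling, 0.01001 under quantile normalization) and Tnfsf13 rc_AA891690_g_at (0.01509, 0.008559), and under quantile normalization Mobp D28111_g_at (0.008617), Hsp90b1 S69315_at (0.0106), Dusp1 S74351_s_at (0.006011), Lamp1 rc_AI233362_at (0.00765) and Fos X06769cds_g_at (0.005382). The cause was not tested. With 1 array left out, probe sets whose regions have opposite signs turned: Psap M19936_at ranged from -0.5224 to 0.0215 and rc_AA875233_s_at from -0.1035 to 0.06073, Dnm1l AF020212_s_at from -0.0475 to 0.05369, Defb1 AF093536_at from -0.0917 to 0.003825, Mobp D28110_at from -0.1231 to 0.0468 and D28111_g_at from -0.1126 to 0.06952, Kcnj11 D86039_at from -0.02535 to 0.07729, Tnfsf13 rc_AA800814_at from -0.03284 to 0.1757 and rc_AA891690_g_at from -0.2056 to 0.1972, Pon1 rc_AA817964_s_at from -0.1163 to 0.01589, Rheb rc_AA851381_at from -0.1323 to 0.1831, Zmym3 rc_AA875207_at from -0.1675 to 0.0282, Wdr62 rc_AI639326_g_at from -0.1279 to 0.05681, Dusp1 S74351_s_at from -0.09844 to 0.03744, Ldhb U07181_at from -0.1651 to 0.03303, RT1-DMb U31599_at from -0.2177 to 0.2545, Cdk5r1 U50707_at from -0.09316 to 0.1027, Fos X06769cds_at from -0.007597 to 0.03977 and X06769cds_g_at from -0.2016 to 0.08741, Junb rc_AA891041_at from -0.01597 to 0.3652 and X54686cds_at from -0.1069 to 0.003043, Egr1 M18416_at from -0.2859 to 0.2064, Arc U19866_at from -0.04132 to 0.05333 and Flg M21759mRNA_at from -1.605 to 0.05946.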
